A study of Mus musculus with 6 samples.

Results

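The genes of oxidative phosphorylation were examined in RAW264.7 cells, a mouse macrophage line, in which Trem2 had been knocked down. Members were the genes that the deposited annotation places in the KEGG oxidative phosphorylation pathway together with the protein-coding genes of the mitochondrial genome, and the subunits of the lysosomal proton pump were left out. This gave 111 genes, 98 nuclear and 13 mitochondrially encoded, of 56092 gene symbols in the count table. After the filter on low counts, 101 of the 111 were tested, among 13528 genes tested in all.

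Both groups were stable lentiviral lines selected with puromycin. The 3 shNC libraries came from control cells, which the labels call an empty vector control and for which the methods list a hairpin of its own, and the 3 shTrem2 libraries came from cells with a short hairpin RNA against Trem2. In all 6 libraries the cells had first been treated for 24 hours with 20 ng/mL IL-4 to induce polarisation. They then met debris of renal tubular epithelial cells, made by freezing and thawing TCMK-1 cells, a mouse line. No library lacked IL-4 or debris, 1 kind of knockdown cell was sequenced, the sources do not say which of the hairpins it carried, and nothing says that the replicates were separate cultures. The p-values therefore measure the spread between these samples, which may be technical.

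Oxidative phosphorylation runs in the inner mitochondrial membrane. Complex I (NADH dehydrogenase) and complex II (succinate dehydrogenase) pass electrons to ubiquinone, complex III (the cytochrome bc1 complex) passes them to cytochrome c, and complex IV (cytochrome c oxidase) passes them to oxygen. Complexes I, III and IV pump protons, and complex V (ATP synthase) lets the protons flow back through its ring of c subunits to make ATP. Most subunits are encoded in the nucleus and imported, a small set in the core is encoded by mitochondrial DNA (mtDNA), and complex II is encoded by nuclear genes alone. Macrophages are known to lean more on this pathway after IL-4 than after inflammatory stimuli.

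Trem2 itself had 114, 122 and 144 CPM (counts scaled to a common library size, with TMM factors) in shNC and 64.7, 63.2 and 80.2 CPM in shTrem2. Each shTrem2 library was below each shNC library, and the log2 fold change was -0.87 ± 0.09 (SE, n = 3 per group, adjusted p = 3.39e-06). On the FPKM scale (fragments scaled by transcript length and depth) Trem2 fell further, from 178 ± 28.5 (SD, n = 3) to 41.7 ± 4.14, and the log2 fold change was -2.08 in limma on log2(FPKM + 0.1). Counts of named genes ranged from 15876061 to 18088372 in shNC and from 19358113 to 19655158 in shTrem2. Of 9 macrophage markers, 8 had more than 3 counts in some library, with summed levels of 5430 to 6411 CPM in shNC and 10480 to 11850 CPM in shTrem2, whereas Arg1, the marker of IL-4 activation, reached 3 counts at most. Most of the higher sum was Lyz2, the macrophage lysozyme, with 2523 to 3205 CPM in shNC and 6827 to 7915 CPM in shTrem2. The markers did not move together, since Itgam and Adgre1, surface markers of macrophages, fell without overlap (-0.78 and -0.56 on the log2 scale, adjusted p = 8.43e-09 and 3.54e-05). Of 19 tubular epithelial markers, 10 had 0 counts in all libraries, among them Krt8, Krt18, Epcam and Cdh1, and the list summed to 1.11 to 1.54 CPM in shNC and 2.35 to 3.14 CPM in shTrem2, mostly Aqp1. RNA of the debris comes from the same species, so its reads cannot be told apart from those of the macrophages by sequence. The part of these marker differences in the results was not tested, and in bulk RNA fewer cells of a type and less RNA per cell cannot be told apart.

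More members were higher than lower in shTrem2. At a false discovery rate (FDR) under 0.05 (edgeR quasi-likelihood test, p-values adjusted by Benjamini and Hochberg's method over all genes), 57 of 101 tested members (56.4%) were higher, against 28.8% of all genes tested, and 10 (9.90%) were lower, against 28.6%. The median log2 fold change (shTrem2 minus shNC) of the members was 0.19, and that of all genes tested was 0.00. The study's criteria for differentially expressed genes were FDR under 0.05 and a change over 1.5-fold. With them, 11 of the 101 tested members were higher and 3 were lower. Of all genes tested, 9.46% were higher and 12.4% lower, so the share of members higher was near that of all genes. The 3 shTrem2 values were all above the 3 shNC values in 62 of the 101 tested members and all below them in 10. The shares of all genes tested were 32.1% and 31.7%.

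**Figure D1:**
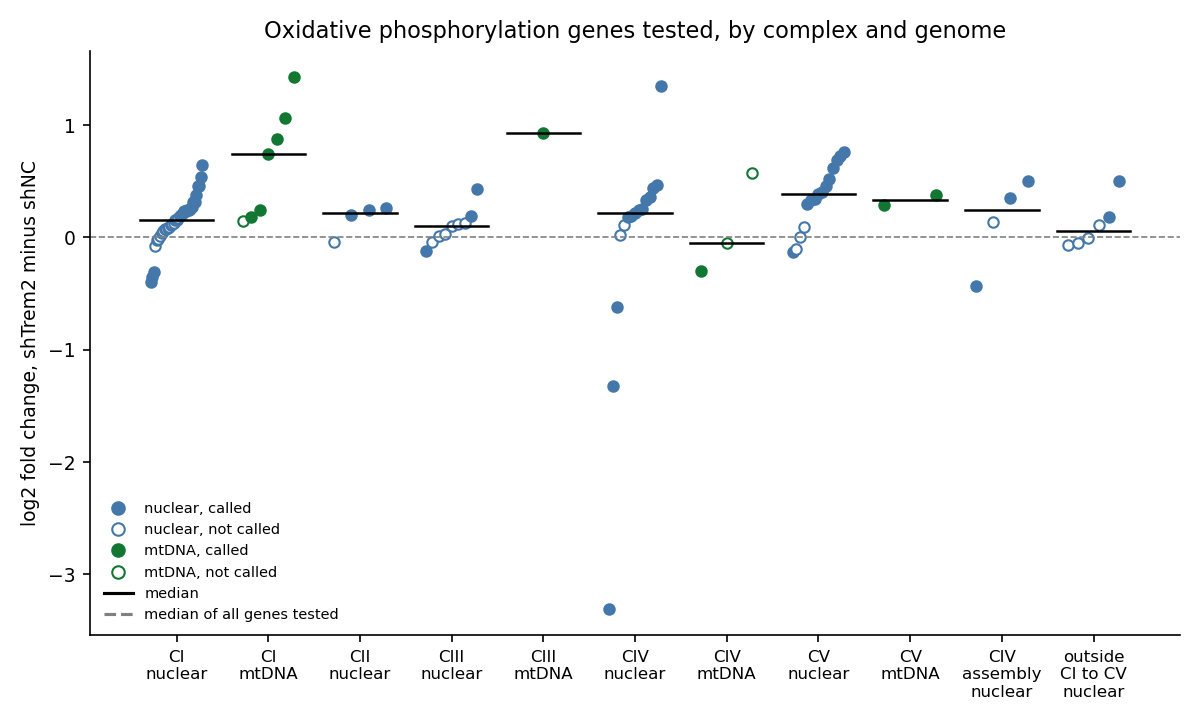
Log2 fold change (shTrem2 minus shNC, vertical axis) of the 101 members tested, by complex and by genome on the horizontal axis. Each point is a gene, filled where the FDR was under 0.05, black lines are medians and the dashed line is the median of all genes tested. Nuclear complex V genes have a median of 0.38, and Cox6a2 of complex IV lies lowest at -3.31.

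The complexes differed in how many members rose. Of the nuclear genes, 11 of 15 rose in complex V (median log2 fold change 0.38), 10 of 15 tested in complex IV (0.22), 3 of 4 in complex II (0.22), 18 of 35 in complex I (0.16) and 2 of 9 in complex III (0.11). The numbers that fell were 1, 3, 0, 3 and 1. In the same order, 73.3%, 66.7%, 75.0%, 51.4% and 22.2% rose, against 28.8% of all genes tested. The shares that fell were 6.67%, 20.0%, 0.0%, 8.57% and 11.1%, against 28.6%. Complex III thus had a smaller share of rises than all genes tested. In limma on log2(FPKM + 1) the medians were smaller, at 0.08 in complex I and 0.06 in complex III. No test of the difference between complexes was made.

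Among the 13 mitochondrially encoded genes, 9 rose and 1 fell, with a median of 0.38, against 48 that rose and 9 that fell of 88 nuclear members tested, with a median of 0.19. The shares that rose were 69.2% and 54.5%, against 28.8% of all genes tested. Those that fell were 7.69% and 10.2%, against 28.6%. The read counts of several mitochondrially encoded genes are shared with nuclear copies. The reference annotation GENCODE M21 (genome build GRCm38; the files were made on GRCm39) places a block of unprocessed pseudogenes on chromosome 1, minus strand, between 24611535 and 24616197, that matches mt-Nd4, mt-Nd4l, mt-Nd3, mt-Co3, mt-Atp6, mt-Co2 and part of mt-Co1 at 98% identity or more over at least 100 bases. Over the 681 bases aligned between mt-Co2 and its copy Gm28661 there was no difference, and the first 61 bases of each (mtDNA 7013-7073, plus strand, and chromosome 1, 24615505-24615565, minus strand) are shown because reads from them cannot be assigned to either gene.
mt-Co2: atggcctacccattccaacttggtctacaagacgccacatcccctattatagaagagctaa
Gm28661: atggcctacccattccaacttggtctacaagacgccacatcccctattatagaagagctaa
The alignment of mt-Nd3 with Gm28438 had 1 difference in 345 bases (T3C, counted from the first base of mt-Nd3, with the mitochondrial base first). The stretches are mtDNA 9459-9519, plus strand, and chromosome 1, 24613059-24613119, minus strand, with the base that differs in capitals.
mt-Nd3: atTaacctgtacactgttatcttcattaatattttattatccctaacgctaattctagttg
Gm28438: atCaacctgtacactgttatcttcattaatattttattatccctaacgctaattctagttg
In mt-Co1, the copy Gm29216 covers 483 bases with 1 difference (A1066T, counted from the first base of mt-Co1). The stretches are mtDNA 6390-6450, plus strand, and chromosome 1, 24616128-24616188, minus strand.
mt-Co1: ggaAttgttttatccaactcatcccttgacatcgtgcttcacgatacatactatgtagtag
Gm29216: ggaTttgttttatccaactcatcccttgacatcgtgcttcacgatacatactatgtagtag

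The deposited counts were divided unevenly over these pairs. Of the counts on mt-Co2 and its copy, 99.3% were on the copy, and the share was 92.3% for mt-Co3 (Gm28437), 55.6% for mt-Atp6 (Atp6-ps), 54.9% for mt-Nd4l (Gm10222), 40.4% for mt-Nd3 and 1.12% for mt-Co1. The copy of mt-Nd4, Gm28439, had 0 counts although 876 bases matched without a difference. Values of these genes are therefore given alone and with the copy added, which was an alternative chosen after seeing the data. With the copies added, 11 of the 13 genes rose (84.6%) and 1 fell (7.69%), and the median was 0.28.

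Mt-Nd3 and mt-Nd1 of complex I had the largest rises among the mitochondrially encoded genes, alone and with the copies added. Mt-Nd1, a core membrane subunit, had 1644, 1668 and 1875 CPM in shNC and 3625, 3719 and 3481 CPM in shTrem2. The groups did not overlap, and the log2 fold change was 1.06 ± 0.06 (SE, adjusted p = 4.5e-09), a 2.09-fold rise. It has no annotated copy under the criteria used.

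Mt-Nd2, another membrane subunit without such a copy, had 1055, 1129 and 1243 CPM in shNC and 1955, 1975 and 1824 CPM in shTrem2. Its groups did not overlap either, and the log2 fold change was 0.75 ± 0.06 (SE, adjusted p = 1.92e-07). Mt-Nd3 had 83.5, 52.4 and 81.5 CPM in shNC and 207, 207 and 169 CPM in shTrem2. Every shTrem2 library was above every shNC library, and the log2 fold change was 1.43 ± 0.13 alone (SE, adjusted p = 7.81e-07) and 1.15 ± 0.08 with its copy.

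Mt-Nd4l had 25.7, 26.7 and 40.5 CPM in shNC and 56.3, 67.7 and 46.7 CPM in shTrem2. The groups did not overlap for the gene alone (log2 fold change 0.87 ± 0.15, SE, adjusted p = 2.65e-04) but overlapped once the copy was added (0.27 ± 0.09, adjusted p = 0.0231). The remaining complex I genes of mtDNA changed less. Mt-Nd4 rose by 0.24 ± 0.06 and mt-Nd5 by 0.18 ± 0.05 on the log2 scale (adjusted p = 0.00348 and 0.01), the latter not in limma on log2(FPKM + 1) (adjusted p = 0.0623). Mt-Nd6, the gene transcribed from the other strand of mtDNA, had 315, 334 and 336 CPM in shNC and 376, 387 and 325 CPM in shTrem2, which overlapped (0.14 ± 0.06, adjusted p = 0.0571). It passed in DESeq2 (adjusted p = 0.0446), with no filter beyond 1 count (0.0188) and without shTrem2 replicate 3 (0.00118).

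Mt-Cytb, the mtDNA subunit of complex III, had 2767, 2807 and 3346 CPM in shNC and 5671, 5902 and 5433 CPM in shTrem2. The lowest shTrem2 library was well above the highest shNC library, with a log2 fold change of 0.93 ± 0.07 (SE, adjusted p = 8.42e-08).

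Of the catalytic subunits of complex IV, mt-Co1 was lower, and the counts of mt-Co2 and mt-Co3 lay mostly on their copies. Mt-Co1, which holds the site of oxygen reduction, had 24220, 23960 and 23730 CPM in shNC and 19330, 20650 and 18450 CPM in shTrem2. Every shTrem2 library was lower, and the log2 fold change was -0.30 ± 0.05 (SE, adjusted p = 2.41e-04), or -0.31 with its copy. It was the only mitochondrially encoded gene that fell, in the fit with the copies as in the fit without them.

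Mt-Co2, the subunit that receives electrons from cytochrome c, had 74.8, 29.8 and 22.4 CPM in shNC and 81.3, 43.6 and 62.6 CPM in shTrem2. These overlapped, and the log2 fold change of 0.57 ± 0.32 (SE) did not pass (adjusted p = 0.145). Without shNC replicate 1, the highest shNC library, it was 1.25 and passed (adjusted p = 0.000253). It also passed with no filter beyond 1 count (0.57, adjusted p = 3.36e-15). That setting holds the same overlapping counts of mt-Co2 and differs only in the genes entered into the fit. With the copy added, mt-Co2 had 5683, 5720 and 6054 CPM in shNC and 7847, 8587 and 7683 CPM in shTrem2, with no overlap and a log2 fold change of 0.47 ± 0.05 (adjusted p = 3.62e-06).

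The direction of mt-Co3, the remaining core subunit, depended on the copy. The gene alone had 510, 377 and 289 CPM in shNC and 311, 447 and 378 CPM in shTrem2 (log2 fold change -0.05 ± 0.16, SE, adjusted p = 0.802). With the copy it had 3844, 3861 and 3990 CPM in shNC and 5899, 6163 and 5833 CPM in shTrem2, which did not overlap and gave 0.61 ± 0.04 (adjusted p = 5.72e-08).

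Of the complex V genes of mtDNA, mt-Atp6, the subunit that carries protons to the c ring, had 1744, 1938 and 1656 CPM in shNC and 2409, 2461 and 2072 CPM in shTrem2, without overlap (log2 fold change 0.38 ± 0.07, SE, adjusted p = 3.81e-04). With its copy the change was smaller, 0.14 ± 0.05 (adjusted p = 0.0174). Mt-Atp8 had 58.3, 73.2 and 75.2 CPM in shNC and 99.9, 83.4 and 70.0 CPM in shTrem2, which overlapped. It was called at 0.29 ± 0.11 (SE, adjusted p = 0.0412) but not in DESeq2 (adjusted p = 0.174), limma-voom (0.0509) or limma on log2(FPKM + 1) (0.12 on the log2 scale, adjusted p = 0.277), nor with the effective-length offset (0.109), library size only (0.0659) or upper quartile scaling (0.0581), nor without any one of replicates 1 and 2 of either group (adjusted p from 0.0587 to 0.244). The rRNA genes of mtDNA, which are no members, were higher as well, mt-Rnr1 by 0.25 and mt-Rnr2 by 0.71, in libraries selected for poly(A) RNA.

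**Figure D2:**
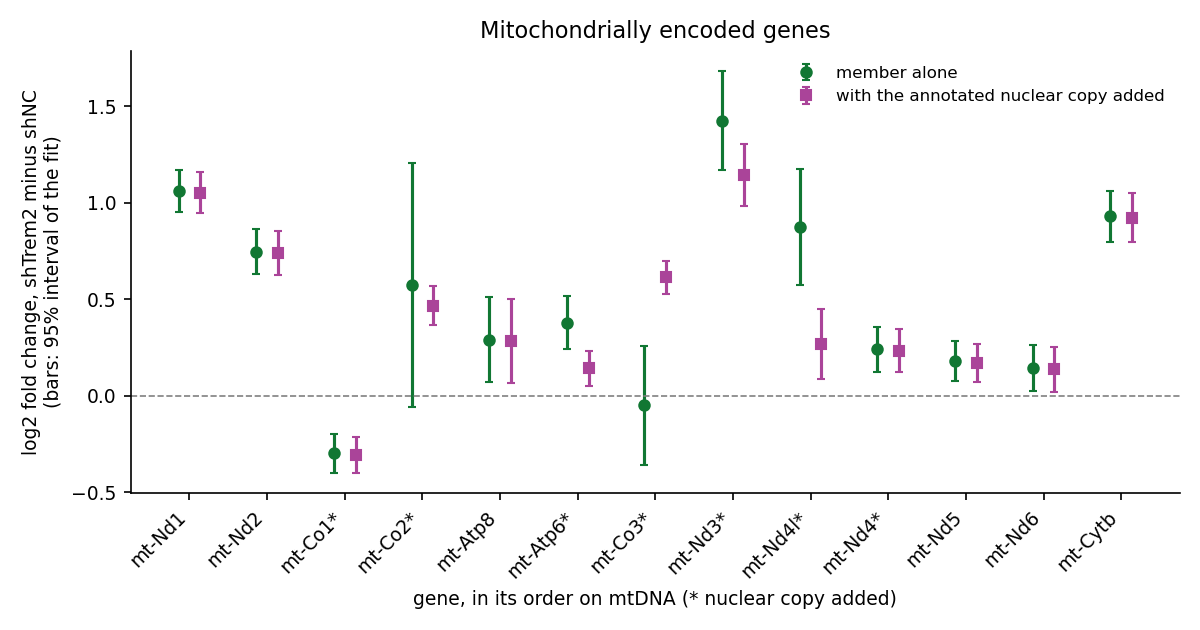
Log2 fold change (shTrem2 minus shNC, vertical axis) with its 95% interval for the 13 mitochondrially encoded genes in their order on mtDNA, alone (circles) and with the counts of the annotated nuclear copy added (squares). Stars mark genes with such a copy; mt-Co3 moves from -0.05 to 0.61, and mt-Co1 stays below 0 at -0.30 and -0.31.

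The mitochondrially encoded genes together took 3.74%, 3.72% and 3.76% of the named counts in shNC and 3.88%, 4.09% and 3.67% in shTrem2. These shares overlapped between groups. Mt-Co1 alone fell from 2.42% ± 0.04 (SD, n = 3) to 1.92% ± 0.11 of named counts, whereas the other 12 genes went from 1.32% ± 0.05 to 1.96% ± 0.10, each without overlap between groups. Without the copies, mt-Co1 thus made up 63.5% to 65.7% of the mitochondrially encoded counts in shNC and 49.1% to 49.9% in shTrem2. The copies, left out of this share, held a mean of 1.24% of named counts in shNC and 1.63% in shTrem2. The share of mt-Co1 is therefore lower in both groups when they are included. With the copies added, the total was 4.98% ± 0.07 (SD) in shNC and 5.51% ± 0.28 in shTrem2, and the groups no longer overlapped. Nuclear members held 0.964% to 1.01% in shNC and 1.09% to 1.11% in shTrem2.

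**Figure D3:**
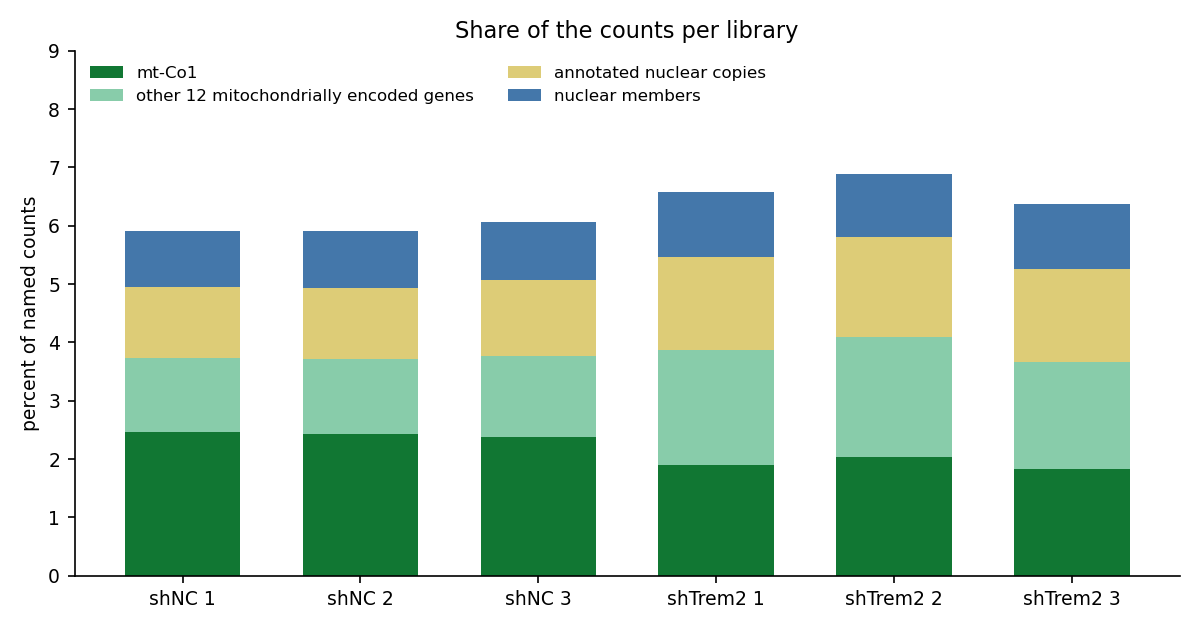
Percent of the named counts (vertical axis) in each of the 6 libraries that fell on mt-Co1, on the other 12 mitochondrially encoded genes, on the annotated nuclear copies and on the nuclear members. The mt-Co1 segment is smaller in each shTrem2 library (1.82% to 2.04%) than in each shNC library (2.39% to 2.46%), and the segment of the other 12 genes is larger.

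ATP synthase had the highest share of nuclear genes that rose, apart from complex II with its 4 genes. In the membrane part of the enzyme, the 3 genes Atp5mc1, Atp5mc2 and Atp5mc3, which encode the same mature c subunit with different import sequences, all rose. Atp5mc3 had 126, 133 and 141 CPM in shNC and 212, 188 and 211 CPM in shTrem2, without overlap (log2 fold change 0.61 ± 0.06, SE, adjusted p = 8.83e-07). Atp5mc1 had 70.8, 69.8 and 78.6 CPM in shNC and 102, 101 and 113 CPM in shTrem2 (0.52 ± 0.06, adjusted p = 8.44e-06). Both genes were higher in every shTrem2 library, and Atp5mc1 shares 411 bases at 99.8% identity with the pseudogene Gm10039, whose counts were 9.28% of its own. Atp5mc2, the least counted of them, had 5.10, 3.77 and 4.13 CPM in shNC and 5.69, 9.40 and 6.39 CPM in shTrem2, so that its groups were close (0.73 ± 0.20, adjusted p = 0.00744). The ratio of Atp5mc1 to Atp5mc3 on the FPKM scale lay between 0.491 and 0.545 in shNC and between 0.453 and 0.523 in shTrem2, which overlapped.

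The small membrane subunits Atp5me and Atp5mf, which take part in pairing ATP synthase monomers, were among those that rose most. Atp5me had 9.88, 11.9 and 12.1 CPM in shNC and 22.2, 19.0 and 16.5 CPM in shTrem2 (log2 fold change 0.77 ± 0.12, SE, adjusted p = 1.33e-04). Atp5mf had 55.4, 57.5 and 60.9 CPM in shNC and 99.2, 91.8 and 89.5 CPM in shTrem2 (0.69 ± 0.06, adjusted p = 4.2e-07). No library of one group reached into the other for either gene. Atp5mg, another small membrane subunit, rose by 0.41 ± 0.04. In an Atp5mg transcript of 6310 bases, 108 bases matched Ankrd40 at 98.1% identity, and the counts of Ankrd40 were 43.4% of those of Atp5mg. The stalk subunits Atp5po, Atp5pf and Atp5pb rose by 0.38, 0.35 and 0.29, while Atp5pd of the same stalk did not pass (0.10 ± 0.05, adjusted p = 0.134).

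The catalytic F1 head was split. Atp5f1b, the catalytic beta subunit, had 837, 856 and 899 CPM in shNC and 1194, 1168 and 1206 CPM in shTrem2 (log2 fold change 0.46 ± 0.04, SE, adjusted p = 1.27e-06), and its partner Atp5f1a rose by 0.33 ± 0.05. Both were higher in every shTrem2 library. The subunits of the central rotor did not rise. Atp5f1c, the gamma subunit, had 230, 227 and 240 CPM in shNC and 212, 214 and 211 CPM in shTrem2 (-0.13 ± 0.04, adjusted p = 0.0172), a fall that no longer passed without shNC replicate 3 (adjusted p = 0.0551) or without shTrem2 replicate 1 (0.0644). Atp5f1d (-0.10 ± 0.05) and Atp5f1e (0.00 ± 0.06) overlapped between groups and did not pass.

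**Figure D4:**
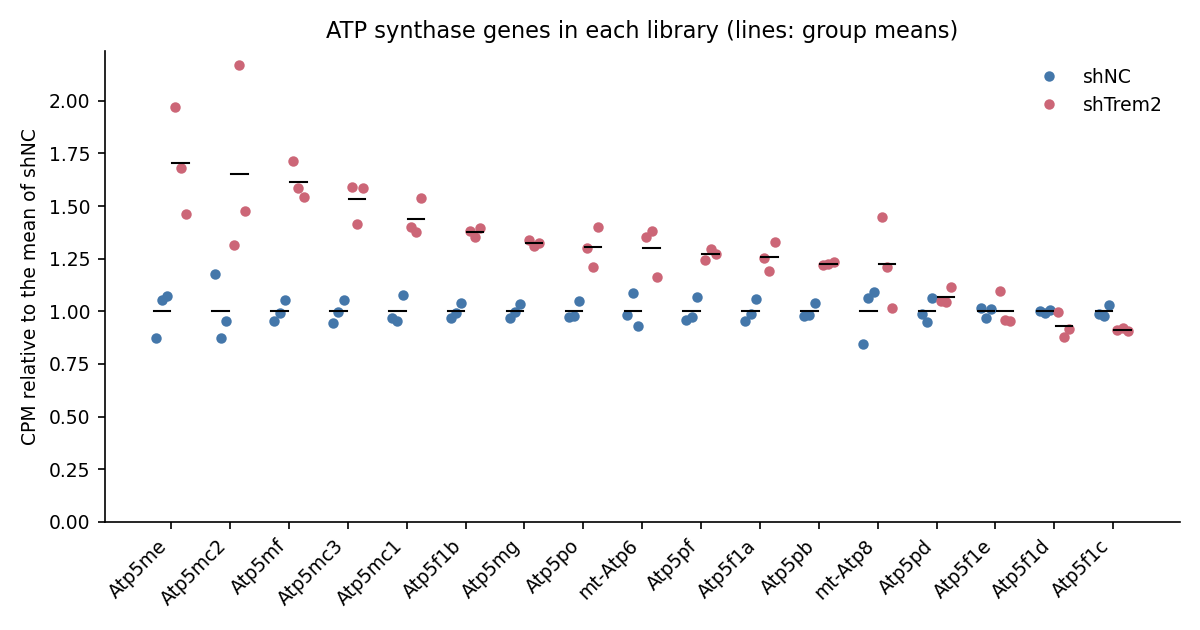
CPM of each of the 17 complex V genes in each library, relative to the mean of the 3 shNC libraries (vertical axis), ordered by fold change from left to right. Points are libraries and short lines are group means; Atp5me lies highest with a mean 1.70-fold above shNC, and Atp5f1c is the gene whose 3 shTrem2 libraries all lie below shNC.

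Cytochrome c oxidase held the nuclear members with the largest changes, Cox6a2, Cox7a1 and Cox4i2. Cox6a2, the subunit VIa form of heart and skeletal muscle, had 11.3, 9.82 and 13.5 CPM in shNC and 0.887, 1.99 and 0.618 CPM in shTrem2. All shTrem2 libraries were far below the shNC libraries, and the log2 fold change was -3.31 ± 0.28 (SE, adjusted p = 3.46e-07), a 9.90-fold fall. Its ubiquitous counterpart Cox6a1 had 138, 139 and 141 CPM in shNC and 170, 169 and 159 CPM in shTrem2 (0.25 ± 0.05, adjusted p = 3.52e-04). On the FPKM scale the ratio of Cox6a2 to Cox6a1 was 0.0565, 0.0489 and 0.0668 in shNC and 0.00365, 0.00817 and 0.00268 in shTrem2, so Cox6a1 was the main form in both groups.

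Cox7a2l, a relative of the subunit VIIa genes that joins complexes III and IV into supercomplexes, had 273, 272 and 276 CPM in shNC and 178, 192 and 163 CPM in shTrem2. The 3 shNC values were nearly equal and all above shTrem2 (log2 fold change -0.62 ± 0.06, SE, adjusted p = 5.57e-07). Cox7a2, the common VIIa subunit, rose by 0.22 ± 0.05. Cox7a1, the VIIa form of muscle, had 0.373, 0.388 and 0.330 CPM in shNC and 1.10, 1.05 and 0.670 CPM in shTrem2 (1.35 ± 0.41, adjusted p = 0.0115). It reached 21 counts at most in a library, so this rests on few reads.

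Cox4i1, the common form of subunit IV, did not differ beyond its spread (295, 290 and 313 CPM in shNC against 316, 301 and 293 CPM in shTrem2, log2 fold change 0.02 ± 0.05). Cox4i2, its form in lung and in low oxygen, had 1.18, 0.832 and 1.16 CPM in shNC and 0.470, 0.418 and 0.361 CPM in shTrem2. It was lower in every shTrem2 library (-1.33 ± 0.38, adjusted p = 0.00824), again from at most 21 counts in a library. With a minimum of 10 counts in every library, Cox4i2 and Cox7a1 left the test and 65 members were called. The ubiquitous subunits otherwise moved upwards together: Ndufa4, first described in complex I, rose by 0.47 ± 0.05, Cox6b1 by 0.44 ± 0.05, Cox7b by 0.36 ± 0.05 and Cox6c by 0.33 ± 0.06, and Cox5a, Cox5b and Cox7c rose by 0.18 to 0.25. Cox8a did not pass (0.11 ± 0.05, adjusted p = 0.0587), except without shTrem2 replicate 2 (adjusted p = 0.0334). The testis and muscle forms Cox6b2, Cox7b2, Cox8b and Cox8c, the pseudogene Cox5b-ps and the hypoxia-linked Ndufa4l2 had too few counts to be tested.

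**Figure D5:**
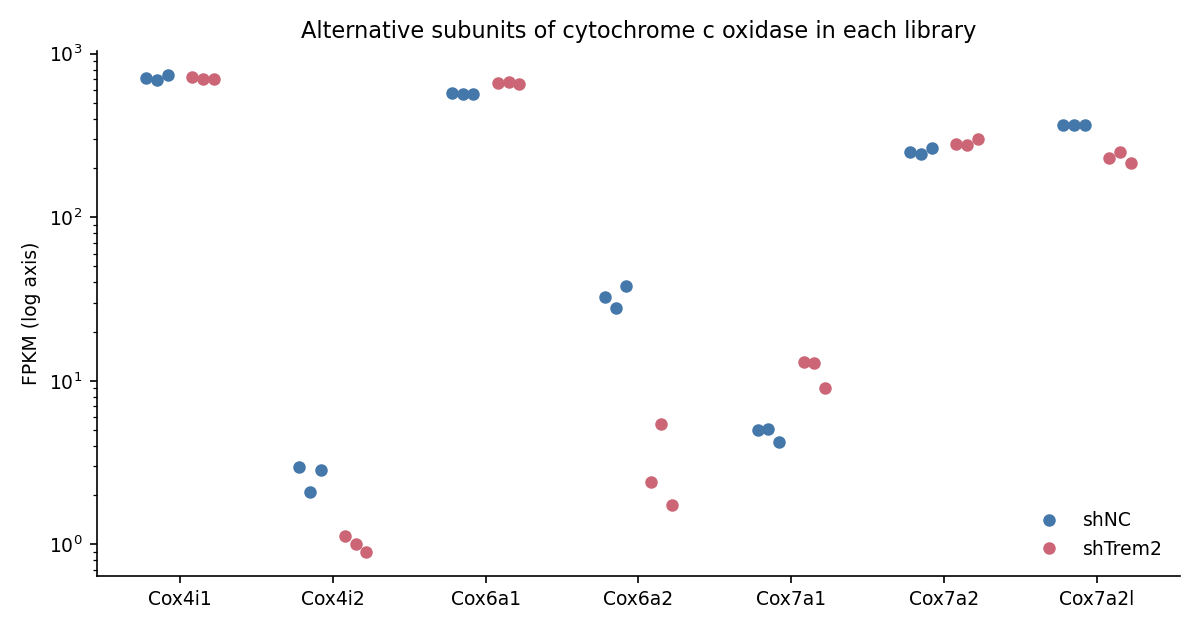
FPKM (logarithmic vertical axis) of the alternative forms of cytochrome c oxidase subunits IV, VIa and VIIa in each library, shNC and shTrem2 side by side. Cox6a2 falls from 27.8 to 38.0 FPKM in shNC to 1.74 to 5.45 FPKM in shTrem2, whereas Cox4i1 stays between 694 and 745 FPKM in all libraries.

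Of the members KEGG lists that help to build complex IV, the heme A synthesis enzyme Cox10 rose (log2 fold change 0.35 ± 0.07, SE, adjusted p = 9.11e-04), and so did Cox11, which delivers copper (0.50 ± 0.11, adjusted p = 0.00182). The copper chaperone Cox17 had 69.4, 76.0 and 76.8 CPM in shNC and 57.1, 54.1 and 53.2 CPM in shTrem2. It was lower in each shTrem2 library (-0.44 ± 0.06, adjusted p = 2.98e-05). Cox15, which acts after Cox10 in heme A synthesis, overlapped between groups (0.14 ± 0.07, adjusted p = 0.0962) and passed without shNC replicate 3 (adjusted p = 0.0482).

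In complex I, 4 of the 7 nuclear core subunits rose and 1 fell, and 14 of the 28 accessory subunits rose and 2 fell. Ndufv2, an iron-sulfur subunit of the NADH-oxidising arm, had 66.0, 64.7 and 70.5 CPM in shNC and 98.3, 96.5 and 97.7 CPM in shTrem2 (log2 fold change 0.54 ± 0.05, SE, adjusted p = 1.25e-06). The groups did not overlap.

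The accessory subunit Ndufa5 was the nuclear complex I gene with the largest change, with 14.2, 16.4 and 16.9 CPM in shNC and 24.2, 23.2 and 27.0 CPM in shTrem2 (0.64 ± 0.09, adjusted p = 5.55e-05). Ndufc1 rose by 0.46 ± 0.10 and Ndufa3 by 0.38 ± 0.10, the former not in limma on log2(FPKM + 1) (adjusted p = 0.173). Ndufa1 rose by 0.27 ± 0.08 and no longer passed without shNC replicate 1 (adjusted p = 0.0644) or without shTrem2 replicate 1 (0.0772).

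Against this, 3 subunits of complex I fell. Ndufa6 had 56.4, 62.5 and 61.6 CPM in shNC and 47.7, 47.2 and 41.8 CPM in shTrem2 (log2 fold change -0.40 ± 0.07, SE, adjusted p = 1.89e-04). Ndufa13, also known as Grim19, had 43.2, 49.7 and 50.4 CPM in shNC and 40.4, 34.3 and 37.7 CPM in shTrem2 (-0.35 ± 0.08, adjusted p = 0.00155). Ndufs7, a core iron-sulfur subunit, had 44.6, 41.8 and 44.2 CPM in shNC and 35.0, 35.6 and 35.1 CPM in shTrem2 (-0.30 ± 0.06, adjusted p = 6.28e-04). In each of them the shTrem2 libraries were all below shNC. The other 14 nuclear genes of complex I did not pass, with log2 fold changes from -0.08 (Ndufa7) to 0.17 (Ndufb2). Among them, Ndufb4 is uncertain because it shares 390 bases without a difference with the pseudogene Ndufb4c.

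In complex II, Sdha, the flavoprotein that oxidises succinate, had 244, 252 and 266 CPM in shNC and 304, 307 and 289 CPM in shTrem2 (log2 fold change 0.24 ± 0.05, SE, adjusted p = 6.62e-04). The membrane anchors Sdhc and Sdhd rose by 0.26 ± 0.05 and 0.20 ± 0.05. The iron-sulfur subunit Sdhb between them had 111, 111 and 121 CPM in shNC and 112, 111 and 110 CPM in shTrem2, with overlap (-0.04 ± 0.05, adjusted p = 0.527).

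Complex III was the complex with the lowest share of nuclear members that changed. Uqcr11, its smallest subunit, had 40.2, 40.5 and 45.7 CPM in shNC and 58.3, 53.7 and 59.0 CPM in shTrem2 (log2 fold change 0.44 ± 0.07, SE, adjusted p = 8.89e-05). Cyc1, cytochrome c1, rose by 0.19 ± 0.05. Uqcrfs1, the Rieske iron-sulfur protein, fell by 0.12 on the log2 scale (adjusted p = 0.0342), which did not pass in DESeq2 (adjusted p = 0.0523) nor without any one of shNC replicates 1, 2 and 3 and shTrem2 replicates 2 and 3 (adjusted p from 0.0539 to 0.0774). The core proteins Uqcrc1 (0.02 ± 0.04) and Uqcrc2 (0.11 ± 0.05) did not pass. The nuclear genes of this complex thus lay apart from mt-Cytb, which had a 1.91-fold rise.

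Outside the complexes, the mitochondrial pyrophosphatase Ppa2 rose (18.6, 19.9 and 17.8 CPM in shNC against 25.8, 28.5 and 25.6 CPM in shTrem2, log2 fold change 0.50 ± 0.08, adjusted p = 1.33e-04), and the cytosolic Ppa1 rose by 0.18 ± 0.06. Ppa1 no longer passed in limma on log2(FPKM + 1) (adjusted p = 0.07), without shNC replicate 2 or without shTrem2 replicate 3 (0.0729 each). Cycs, cytochrome c, and the retrogene Gm10053, which matches it at 99.9% over 946 bases, did not pass (-0.06 ± 0.08 and 0.00 ± 0.07), and Cycs was lower and passed without shTrem2 replicate 3 (-0.18, adjusted p = 0.013). Lhpp, a phosphatase, and Tcirg1, a subunit of the lysosomal proton pump that the rule retains by its symbol, did not pass either (0.11 and -0.05). Atp12a, Atp4a and Atp4b, proton pumps of the stomach and colon, and Cyct, the testis form of cytochrome c, had too few counts to be tested.

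Levels between genes were compared as FPKM. In shNC, mt-Co1 was at 19670 ± 312 FPKM (SD, n = 3), mt-Atp6 at 5026 ± 420, mt-Cytb at 3637 ± 372 and mt-Nd1 at 2743 ± 183. The copies of mt-Co2, mt-Co3 and mt-Atp6 were at 16270 ± 525, 7663 ± 354 and 7429 ± 498 FPKM. The levels of these genes therefore cannot be ranked beside the others. The highest nuclear members were Atp5f1e (836 ± 29), Atp5mg (750 ± 7), Uqcrh (720 ± 31) and Cox4i1 (717 ± 26). Uqcrh and Cox4i1 were closer to each other than their spread. Mt-Atp8, listed at 32600 ± 2633 FPKM, is shorter than a sequenced fragment, so its effective length is small and this value cannot be set beside the others. FPKM and counts parted for some members. Uqcrq had 438 to 472 FPKM in shNC and 338 to 375 FPKM in shTrem2, while its CPM overlapped (log2 fold change -0.04). Ndufs4 of complex I was called higher on counts (0.15, edgeR adjusted p = 0.0383). Its FPKM was lower, with 73.0 to 80.9 in shNC and 66.2 to 69.7 in shTrem2.

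Promoter sequences of RefSeq (GRCm38.p6, from 250 bases before to 50 after each start) were matched to 76 of the 98 nuclear members. The letters GCGCATGC, core of the site of nuclear respiratory factor 1 (NRF1), were found on either strand in 11 of the 83 windows of these members (13.2%), against 2.71% of 32851 windows of all genes and 5.20% of those of genes tested here. CCGGAAGT, the site of ETS factors such as GABPA, was in 7 (8.43%), against 3.89% of all windows and 8.44% of those of genes tested, so that the members were at the level of the genes tested. AAGATGGC, the site of YY1, was in 10 (12.05%, against 2.75% and 4.62%), and AAGGTCA, the short site of estrogen-related receptors, in 8 (9.64%, against 4.72% and 3.31%). GCGCATGC and its reverse complement can overlap, and a match describes letters and not a bound factor.

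Of the 11 tested members whose windows held the NRF1 letters, 5 rose and 1 fell, with a median of 0.02 on the log2 fold change scale. Of the 60 without them 36 rose and 5 fell, with a median of 0.20. For the YY1 letters, 9 of 10 rose and 1 fell (median 0.32), against 32 and 5 of 61 without them (0.18). For the ETS letters, 2 of 7 rose and 0 fell (0.11), against 39 and 6 of 64 (0.20), and for those of estrogen-related receptors 5 of 8 rose and 0 fell (0.21), against 36 and 6 of 63 (0.19). Of all genes tested, 28.8% rose and 28.6% fell, and the 2 of 7 with the ETS letters that rose lay near the first share. No test was made of the counts by letters. The stretches below, with the NRF1 letters in capitals, come from a member that fell (Ndufa6), from others that rose (Uqcr11, Cox6a1, Atp5me and Atp5mc2) and from others that did not pass (Sdhb and Cycs), and show the same letters near the start of genes of each kind. They lie at chr15:82354335-82354414, chr10:80406812-80406865, chr5:115349081-115349160, chr5:108434410-108434489, chr15:102671050-102671129, chr4:140961177-140961256 and chr6:50566590-50566669, in that order, on the minus strand except for Sdhb.
Ndufa6: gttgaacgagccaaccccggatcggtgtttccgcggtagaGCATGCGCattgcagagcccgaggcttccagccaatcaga
Uqcr11: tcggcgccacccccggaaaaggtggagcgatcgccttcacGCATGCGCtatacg
Cox6a1: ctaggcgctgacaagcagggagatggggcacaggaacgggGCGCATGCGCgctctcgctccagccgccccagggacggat
Atp5me: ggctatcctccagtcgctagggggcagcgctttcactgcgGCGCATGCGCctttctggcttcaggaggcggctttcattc
Atp5mc2: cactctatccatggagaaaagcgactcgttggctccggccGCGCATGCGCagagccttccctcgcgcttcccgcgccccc
Sdhb: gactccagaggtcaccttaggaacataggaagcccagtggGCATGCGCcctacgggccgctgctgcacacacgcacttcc
Cycs: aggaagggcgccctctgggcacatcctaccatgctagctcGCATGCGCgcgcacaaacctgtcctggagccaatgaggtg

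The genes of these factors and of other regulators moved in both directions. Of 11 tested, 4 rose (36.4%, against 28.8% of all genes tested) and 4 fell (36.4%, against 28.6%). Nrf1 had 24.8, 22.2 and 23.1 CPM in shNC and 30.9, 27.2 and 32.0 CPM in shTrem2 (log2 fold change 0.36 ± 0.08, SE, adjusted p = 0.00174), although not in limma on log2(FPKM + 1) (adjusted p = 0.0995). Gabpa rose by 0.32 ± 0.05, Hif1a, the hypoxia-inducible factor, by 0.47 ± 0.05 and the coactivator Pprc1 by 0.23 ± 0.06, the last with an adjusted p of 0.969 in limma on log2(FPKM + 1). Esrra, estrogen-related receptor alpha, had 73.3, 75.1 and 75.9 CPM in shNC and 50.1, 46.2 and 48.9 CPM in shTrem2 (-0.63 ± 0.06, adjusted p = 5.47e-07). Yy1 (-0.38 ± 0.04), Ppard (-0.53 ± 0.07) and Rrn3 (-0.27 ± 0.06) fell too, Ppard not in limma on log2(FPKM + 1) (adjusted p = 0.0584). Ppargc1a, the coactivator most often tied to mitochondrial biogenesis, had 0 counts in all 6 libraries, which allows up to 0.153 to 0.189 CPM by counting error alone.

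Of 31 tested genes that copy, transcribe or process mtDNA, 14 rose (45.2%, against 28.8% of all genes tested) and 6 fell (19.4%, against 28.6%), with a median log2 fold change of 0.15. Tfam, which packages mtDNA and starts its transcription, had 53.3, 56.5 and 54.4 CPM in shNC and 78.2, 75.8 and 77.6 CPM in shTrem2, without overlap (0.50 ± 0.05, adjusted p = 3.29e-06). The RNA-binding FASTK family was divided, with Fastkd2 up by 0.56 ± 0.07 and Fastkd3 by 0.48 ± 0.08, and Fastkd1 down (47.7, 42.8 and 42.4 CPM against 27.6, 28.9 and 29.4 CPM, -0.63 ± 0.07, adjusted p = 3.39e-06). Of 45 tested assembly factors, 14 rose (31.1%, near the share of all genes tested) and 8 fell (17.8%), with a median of 0.10. Bcs1l and Uqcc3, both of complex III assembly, rose by 0.77 ± 0.10 and 0.77 ± 0.17, and Tmem242, of ATP synthase assembly, and Cox20 rose by 0.70 ± 0.06 and 0.70 ± 0.13. Others fell, with Lyrm7 and Ttc19, also of complex III assembly, at -0.65 ± 0.17 (SE, adjusted p = 0.00439) and -0.27 ± 0.08 (0.00956), Sdhaf1 of complex II assembly at -0.56 ± 0.12 (0.00105) and Surf1 of complex IV assembly at -0.49 ± 0.08 (1.07e-04). The other complex II assembly factors were divided. Sdhaf3 fell (-0.43 ± 0.13, adjusted p = 0.0133), Sdhaf4 rose (0.59 ± 0.11, adjusted p = 4.01e-04) and Sdhaf2 did not pass (0.11 ± 0.07). On the FPKM scale Lyrm7 overlapped between groups, with 3.21 to 6.12 in shNC and 3.64 to 6.03 in shTrem2.

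In the tricarboxylic acid cycle, which feeds electrons to complexes I and II, 11 of 21 tested genes rose and 3 fell (median 0.17). These were 52.4% and 14.3%, against 28.8% and 28.6% of all genes tested. The complex II genes are counted in both lists, and Sdha, Sdhc and Sdhd are among those that rose. Cs, citrate synthase, had 223, 216 and 212 CPM in shNC and 445, 439 and 415 CPM in shTrem2. Every shTrem2 library was above every shNC library (log2 fold change 1.00 ± 0.05, SE, adjusted p = 1.34e-09). Suclg2 rose by 0.51 ± 0.05 and Idh2 by 0.44, while Ogdh, of the 2-oxoglutarate dehydrogenase complex, had 208, 200 and 211 CPM in shNC and 143, 136 and 140 CPM in shTrem2 (-0.56 ± 0.05, adjusted p = 1.97e-07).

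Of 16 tested electron carriers and neighbours of the chain, 8 rose and 2 fell (median 0.15). The shares of all genes tested that rose and fell were 28.8% and 28.6%. A larger share of this list thus rose, and a smaller share fell. Sqor, which passes electrons from sulfide to ubiquinone, had 31.0, 32.3 and 29.3 CPM in shNC and 6.94, 8.15 and 7.57 CPM in shTrem2, without overlap (log2 fold change -2.03 ± 0.09, SE, adjusted p = 1.4e-09). The ADP/ATP carrier Slc25a5 rose by 0.60 ± 0.05 and Higd1a by 0.82 ± 0.08, whereas Higd2a, its relative in complex IV assembly, fell (-0.52 ± 0.07, adjusted p = 1.84e-05).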

How the data were processed

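RNA-seq was analysed for 3 shNC and 3 shTrem2 libraries, grouped by the titles in the labels. Per the labels, poly(A) RNA was made into stranded libraries, and per the submitters' processing notes fastp, HISAT2 and StringTie were used with genome build GRCm39. The counting tool and annotation release are not given in the sources used here. The authors deposited estimated counts per transcript, of which 79.3% of nonzero values were not whole, and FPKM per gene on effective length.

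Estimated counts were summed per symbol and rounded. Rows without a symbol (0.908% to 1.12% of counts per library) were left out. edgeR 4.0.16 in R 4.3.3 (TMM, filterByExpr, glmQLFit and glmQLFTest, no covariate) was applied to all genes, and all 6 libraries entered each fit. Standard errors and intervals of fold changes come from the fit and include the spread between libraries. The limit of 3 counts for a value of 0 covers counting error only. The script was tested on simulated counts. Alternatives were DESeq2 1.42.0, limma 3.58.1 (voom, and log2(FPKM + 1) and log2(FPKM + 0.1)), RLE, upper quartile and library size scaling, mitochondrial genes out of the scaling, other filters, an effective-length offset, the replicate block, FDR under 0.01, Ndufa4 in complex I and each library left out. Copies were found with BLAST 2.17.0+.

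Members and lists were chosen with earlier results of these data known. Genes named were all mitochondrially encoded members, per complex the 2 nuclear genes of highest FPKM and up to 5 rises and 5 falls of largest size, isoform pairs, members outside the complexes, up to 4 genes per other list and the regulators that passed. Other members, among them Atp5f1b, Cox5a, Ndufs4 and Uqcrq, were named after their values were seen. So were Ppargc1a, Lyz2, Itgam, Adgre1, Lyrm7, Ttc19, Sdhaf1, Sdhaf2, Sdhaf3, Sdhaf4 and Surf1. One gene that the rule names is not reported here.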

Additional observations from a re-analysis of the deposited data

How the results depend on the processing

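Of the 87 named genes tested, 63 kept their direction and their side of the threshold in each of the 19 alternatives in which they were tested. The counts of members higher ranged from 47 (FDR under 0.01) to 62, and those lower from 8 to 12. The number over 1.5-fold lower was 5 with no filter beyond 1 count, where more genes of low count were tested. The causes of the other moves were not tested. The median of the mitochondrially encoded genes was 0.28 with the nuclear copies added. In limma on log2(FPKM + 0.1) and log2(FPKM + 1), the medians were 0.0814 and 0.0808 for complex I, 0.1675 and 0.1665 for complex II and 0.0627 and 0.0626 for complex III. Complex III was at 0.0720 with library size only and between 0.0745 and 0.1452 when each library was left out. The mitochondrial share was 3.89% in shNC over nuclear counts, 3.79% in shNC with mitochondrial rRNA included, 9.20% in shNC and 10.5% in shTrem2 of summed FPKM, and 4.98% and 5.51% with copies added.

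Signs turned in genes that had not passed. Atp5f1e was at -0.0007 with at least 10 counts in every library, -0.0111 with the effective-length offset, -0.0300 with library size only, -0.0464 and -0.0463 in limma on FPKM, -0.0008 with no filter, -0.0035 with copies and -0.0151 with upper quartile scaling. Cox15 was at -0.0192 with the offset and at -0.0468 and -0.0444 in limma on FPKM. Cox4i1 was at -0.0158 with library size only, -0.0207 in limma on FPKM with either pseudocount and -0.0010 with upper quartile scaling. Uqcrh was at -0.0029 with library size only and -0.0122 in limma on FPKM. mt-Co3 was at 0.61 with its copy. With each library left out, the ranges were -0.0630 to 0.0385 for Atp5f1e, -0.0135 to 0.0534 for Cox4i1, -0.0220 to 0.0544 for Uqcrh, -0.1826 to 0.0249 for Cycs, -0.0673 to 0.0544 for Gm10053, -0.0505 to 0.2333 for Lhpp, -0.1436 to 0.0117 for Ndufa7, -0.0700 to 0.0030 for Sdhb and -0.2283 to 0.1731 for mt-Co3.

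Replicate numbers were shared by the groups, but same-numbered libraries did not deviate together (correlations of 0.0443, 0.0402 and 0.0249 over 9548 genes). With the replicate block, 56 members were higher and 10 lower, and 65 of the 67 calls were shared. Mt-Atp8 was then not called (0.28, adjusted p = 0.0535), and mt-Co2 was (0.67, adjusted p = 0.0047).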
